A study of Mus musculus with 30 samples.

Results

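Lepr, the gene of the leptin receptor, was described with 6 other genes of hormone and growth factor receptors of the liver: Prlr, Lifr, Egfr, Thrb, Esr1 and Nr3c1. These 7 genes were found by symbol among the 14173 genes of the count tables. Lepr was selected on the rise of its count in Cas-5% livers, so its values in any comparison with casein livers are given as a description, with no test. The other 6 were named as receptors with large roles in liver.

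Liver RNA was measured in 30 male C57BL6/J mice aged 6 months, which ate their diets for 12 weeks from 12 weeks of age, with food freely available, and were fasted for 4 h before liver was taken. The casein groups had first been kept on Cas-20% and the soy groups on Soy-20%. Each of 5 diets gave 6 livers and 1 library per liver. The labels name no engineered allele or drug. Cas-20% was the casein control, with 0.57 gm% methionine and 0.41 gm% cysteine, and Cas-5% was its low-protein form, with 0.15 gm% methionine and 0.1 gm% cysteine. Soy-20% held 0.22 gm% of each amino acid, Soy-20% + SAA was the same protein with methionine and cysteine added to 0.58 and 0.41 gm%, and Soy-10%, labelled as 11.5% soy, held 0.13 gm% of each. The low-protein diets differ from their controls in protein and in sulfur amino acids together. Libraries were 3′ tag libraries, in which a read marks the end of a transcript, and held between 7694015 and 14565542 counts. Values are normalized counts, the reads of a gene divided by the size factor of its library. Levels are compared between diets and not between genes.

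The leptin receptor belongs to the class I cytokine receptors, which lack an enzyme of their own and signal through bound Janus kinases to STAT factors. Its transcripts are spliced to a long form that signals and to short forms, and part of the receptor is shed or secreted and carries leptin in blood, with liver as a known source. The prolactin receptor and the LIF receptor are of the same class, the latter acting with the shared subunit Il6st. Egfr is a receptor tyrosine kinase that is abundant on hepatocytes and drives growth. Thrb, Esr1 and Nr3c1 encode nuclear receptors for thyroid hormone, estrogen and glucocorticoids, which bind DNA and act on the genes of hepatic lipid, steroid and glucose metabolism.

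Lepr lies on chromosome 4 from 101717404 to 101815352 on the forward strand of GRCm38, and the GENCODE annotation gives it 7 transcripts, 4 of them coding, with 4 different 3′ ends. The coding transcripts end at 101733317, 101792258, 101813667 and 101815352, so a count per gene pools the short and long forms. Leprot, the gene of a protein that shares its name with the receptor, ends 58040 bases before Lepr starts and is given beside it. Prlr and Lifr lie on chromosome 15, Egfr on 11, Thrb on 14, Esr1 on 10 and Nr3c1 on 18. RefSeq promoter windows of GRCm38.p6, which run from 250 bases before to 50 bases after a transcript start, were held for 6 of the 7 genes. The windows of Lepr are shown because it had the largest difference between diets, and those of Esr1 because it was the member that fell. Capitals mark matches, on either strand, to TGATGNAA (an amino acid response element), TTCNNNGAA (a STAT site), AGGTCA (a nuclear receptor half-site) or TTGCNNAA (a C/EBP site), and no matches overlap in these windows.
Lepr, first start, chr4:101717157-101717456, forward strand: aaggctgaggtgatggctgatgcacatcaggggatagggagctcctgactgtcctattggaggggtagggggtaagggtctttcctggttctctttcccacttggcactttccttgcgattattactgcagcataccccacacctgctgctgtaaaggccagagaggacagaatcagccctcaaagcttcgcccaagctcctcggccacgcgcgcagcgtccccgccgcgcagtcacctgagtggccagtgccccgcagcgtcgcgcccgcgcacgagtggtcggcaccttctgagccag
Lepr, second start, chr4:101717656-101717955, forward strand: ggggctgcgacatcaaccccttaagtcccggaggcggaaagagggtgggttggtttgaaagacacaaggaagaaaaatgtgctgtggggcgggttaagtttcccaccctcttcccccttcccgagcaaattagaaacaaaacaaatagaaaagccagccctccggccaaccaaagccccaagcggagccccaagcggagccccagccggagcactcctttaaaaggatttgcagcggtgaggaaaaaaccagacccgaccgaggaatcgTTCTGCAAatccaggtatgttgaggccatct
Esr1, first start, chr10:4611739-4612038, forward strand: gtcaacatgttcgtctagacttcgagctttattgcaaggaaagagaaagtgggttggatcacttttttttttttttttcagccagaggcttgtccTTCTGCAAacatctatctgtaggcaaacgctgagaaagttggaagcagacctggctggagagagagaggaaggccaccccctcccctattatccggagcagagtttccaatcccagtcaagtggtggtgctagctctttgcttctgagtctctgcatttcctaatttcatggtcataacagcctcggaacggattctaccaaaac
Esr1, second start, chr10:4709908-4710207, forward strand: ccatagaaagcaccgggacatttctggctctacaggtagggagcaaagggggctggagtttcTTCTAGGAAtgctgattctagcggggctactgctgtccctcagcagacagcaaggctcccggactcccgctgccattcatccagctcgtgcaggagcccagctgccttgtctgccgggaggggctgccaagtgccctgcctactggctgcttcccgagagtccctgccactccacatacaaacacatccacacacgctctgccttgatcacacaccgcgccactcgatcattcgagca
The first Lepr window held no match and the second held 1, a reverse C/EBP site that begins at base 270 of the window. The same letters stood in the first Esr1 window at base 96, and the second Esr1 window held a STAT site at base 63. Over all 32851 windows of the reference, 3.97% held the amino acid response element, 8.3% the STAT site, 16.3% the half-site and 10.8% the C/EBP site, so each match is of a common kind and is given as a description.

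Libraries 3 to 6 of Soy-20% + SAA stood apart before any comparison. Their log2 CPM values (each count scaled by its library total), relative to each gene's mean, rose with the GC content of the last 200 bases of its longest transcript. Over 11967 genes the rise per 10 percentage points of GC was 0.0548 in library 3 and 0.168 to 0.194 in libraries 4 to 6. The other 26 libraries lay between -0.0572 and 0.0235, so library 3 was nearer to them than to libraries 4 to 6. By the longest transcript, all 7 receptor genes have 3′ ends at or below the median GC content of 40.5%, the lowest being Thrb at 25.5%. The Soy-10% comparison with Soy-20% + SAA is therefore given also without libraries 3 to 6. The 7 genes have 3 to 9 different coding 3′ ends each, and the end that the reads came from was not determined. One Soy-10% liver, replicate 4, had a summed normalized count of 4453.1 for pancreatic acinar markers (Cela1, Prss2, Cpa1 and Pnlip, of 6 listed), against 164.0 to 628.8 in the other 29 livers. Its Lepr count of 33.4 lay inside the range of the other Soy-10% livers.
The tissue label held: Alb, the most abundant hepatocyte marker, had mean normalized counts of 467087 in Cas-20% and 589764 in Cas-5% livers, and all 6 hepatocyte markers were in the table. Between these diets Alb and Hnf4a were called higher and Cps1, an enzyme of the urea cycle, and Serpina1c lower, with Cps1 at 3985 ± 920 in Cas-5% and 10645 ± 2125 in Cas-20% livers (log2 fold change -1.40, adjusted p = 4.06e-06 in edgeR), so these markers moved in both directions. Of the adipocyte genes, Adipoq, Plin1, Retn and Lep, the gene of leptin itself, were not among the genes of the table, and neither were the cholangiocyte marker Cldn7 and the acinar markers Cela2a and Amy2a5.

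Lepr was more than 13-fold higher in Cas-5% livers than in Cas-20% livers, and the next highest diet was Soy-10%. In Cas-20% livers its normalized count had a lowest value of 5.8, a median of 11.1 and a highest value of 27.9. In Cas-5% livers it ran from 155.6 through a median of 195.6 to 271.1. The groups did not overlap, as was so, with Cas-5% higher, for 621 of the 12076 genes tested (5.14%), and the lowest Cas-5% liver was above every one of the 24 livers on other diets. In Soy-10% livers Lepr ran from 15.2 through 31.2 to 36.5. Soy-20% livers lay between 4.2 and 16.1, with a median of 12.8, and Soy-20% + SAA livers lay between 3.9 and 21.0, with a median of 12.0. Of the 6 Soy-10% livers, 5 were above every Soy-20% liver and 5 were above every Soy-20% + SAA liver, so the groups overlapped by 1 Soy-10% liver in each case. The order of mean normalized counts was Cas-5% (205.6 ± 42.5, SD, n = 6), Soy-10% (28.2 ± 8.0), Cas-20% (15.2 ± 9.9), Soy-20% (12.1 ± 4.3) and Soy-20% + SAA (11.8 ± 5.7). The last 3 differed by less than the spread between their livers, and Soy-10% overlapped Cas-20%.

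**Figure D1:**
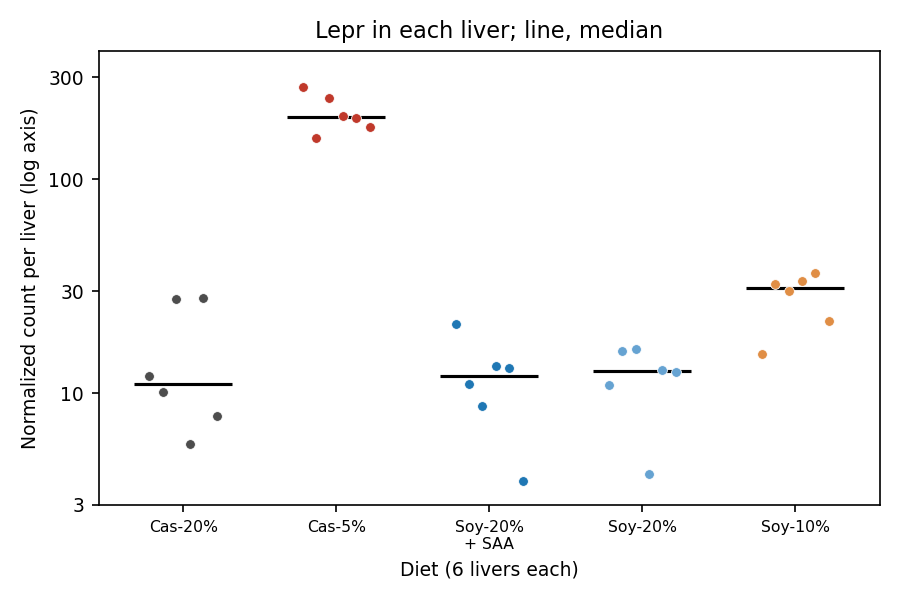
Normalized count of Lepr in each of 30 livers (points, livers 1 to 6 from left to right) by diet, with the median as a line, on a log axis. Cas-5% livers lie between 155.6 and 271.1, above all others, and 5 of 6 Soy-10% livers lie above all Soy-20% livers.

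Between casein diets the log2 fold change of Lepr was 3.76 with a standard error of 0.26, given as a description. Between Cas-5% and Soy-10%, the low-protein diets, it was 2.88 with a standard error of 0.17, and the casein effect exceeded the soy effect by 2.49 with a standard error of 0.46. That choice names no soy value, so Lepr was tested between the soy diets, though with earlier results of these data known. Lepr rose in Soy-10% against Soy-20% + SAA by 1.26 on the log2 scale, a fold of 2.39 (standard error 0.31, adjusted p = 0.0149 by edgeR's quasi-likelihood test with Benjamini-Hochberg adjustment over 11983 genes, the test behind each adjusted p of a diet comparison). The call held when each liver was left out in turn, with differences from 1.05 to 1.51. Without libraries 3 to 6 of Soy-20% + SAA the difference was 0.78 (adjusted p = 0.315), which leaves 2 control livers, and with the GC slope as a covariate it was 0.89 (adjusted p = 0.219). Against Soy-20%, whose libraries showed no such trend, Lepr rose by 1.20 on the log2 scale (standard error 0.27, adjusted p = 0.0431 over 11897 genes). This call was lost when any of 9 of the 12 livers was left out, with adjusted p up to 0.117 (0.083 without Soy-10% replicate 4), and held without Soy-20% replicate 3, Soy-10% replicate 1 or Soy-10% replicate 6, and the difference itself stayed between 1.03 and 1.33. It was also lost with the GC slope as a covariate (adjusted p = 0.0655), the replicate number as a block (0.0712) and 1 fit of 30 libraries (0.107). Between Soy-20% and Soy-20% + SAA, where methionine and cysteine differed at one protein level, the difference was 0.06, with a 95% confidence interval from -0.69 to 0.82 (adjusted p = 0.935), and it turned to -0.42 without libraries 3 to 6 (adjusted p = 0.878) and -0.30 with the GC slope as a covariate (adjusted p = 0.87). Of 11897 genes, 38 (0.319%) were called higher in Soy-10% than in Soy-20%, and of 11983 genes 1020 (8.51%) were called higher and 8.47% lower against Soy-20% + SAA.

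Leprot did not share the pattern of Lepr. Its mean normalized counts were 85.0 ± 4.8 (SD, n = 6) in Cas-20%, 93.4 ± 7.6 in Cas-5%, 80.1 ± 10.9 in Soy-20% + SAA, 83.7 ± 13.5 in Soy-20% and 84.3 ± 2.8 in Soy-10% livers. The log2 fold change between casein diets was 0.15, with an interval from -0.04 to 0.34 and an adjusted p of 0.234.

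The genes most like Lepr across the 30 libraries were found by Pearson correlation of log2 CPM over 12033 genes. They were Bcl2l11 (r = 0.91), a pro-apoptotic member of the Bcl2 family, Abca8b (0.90), a transporter of the ABC family, Psph (0.90), which completes serine synthesis, Pck2 (0.90), the mitochondrial PEP carboxykinase, and Slc7a1 (0.89), a carrier of cationic amino acids. Slc7a1 had a mean normalized count of 48.3 ± 13.8 (SD, n = 6) in Cas-5%, 18.0 ± 4.1 in Soy-10% and 12.5 ± 1.0 in Cas-20% livers. Psph had 125.9 ± 12.8, 92.4 ± 18.3 and 59.4 ± 9.8 in the same order. Abca8b had 698.5 ± 132.1, 469.3 ± 42.2 and 325.5 ± 47.6, and Pck2 had 69.9 ± 15.5, 35.8 ± 4.0 and 26.0 ± 4.0. Bcl2l11, with the highest correlation, had 218.2 ± 34.8, 123.3 ± 26.6 and 119.6 ± 24.5, so its Soy-10% mean lay close to that of Cas-20%. The most opposed were Aldh7a1 (r = -0.93), an enzyme of lysine breakdown, Nnmt (-0.91), which uses methyl groups from S-adenosylmethionine to methylate nicotinamide, and Gchfr (-0.91), the feedback regulator of GTP cyclohydrolase. Nnmt had a mean of 897.7 ± 360.3 in Cas-20%, 29.1 ± 6.3 in Cas-5%, 476.9 ± 118.9 in Soy-20% + SAA, 454.1 ± 107.3 in Soy-20% and 147.1 ± 87.3 in Soy-10% livers. The Cas-5% livers stand apart and weigh heavily in these values. Over the 24 livers of the other diets the correlations with Lepr were 0.58 to 0.75 for the first 5 genes and -0.78 to -0.66 for the other 3. The points share libraries and diets, so the values are a description.

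Among the other cytokine receptors of the set, Prlr was higher in Cas-5% livers and Lifr did not pass a test. In Cas-20% livers Prlr ran from 584.9 through a median of 853.8 to 1294.5, and in Cas-5% livers from 1064.9 through 1312.4 to 1518.4. The groups overlapped: Cas-20% livers 1 to 3 lay between 584.9 and 736.5, livers 4 to 6 between 971.1 and 1294.5, and 3 of 6 Cas-5% livers were above all of Cas-20%. Prlr rose by 0.53 on the log2 scale (standard error 0.17, adjusted p = 0.0341 in edgeR). Leaving out any of 7 of the 12 livers (Cas-20% replicates 1, 2 and 3, Cas-5% replicates 1, 2, 4 and 6) ended this call, with adjusted p up to 0.0768, and so did the GC slope as a covariate (0.40, adjusted p = 0.107). Prlr was also higher in Cas-5% than in Soy-10% livers, by 0.36 (standard error 0.11, adjusted p = 0.0485), and this call was lost without 8 of the 12 livers in turn, Cas-5% replicates 1, 2, 4 and 6 and Soy-10% replicates 2, 4, 5 and 6. Prlr lost this call also without a filter (adjusted p = 0.0562), with the GC slope as a covariate (0.0631) and with 1 fit of 30 libraries (0.176). In the soy diets its medians were 948.5, 950.9 and 1074.3 in Soy-20% + SAA, Soy-20% and Soy-10% livers, and neither soy comparison passed (adjusted p = 0.522 and 0.759). Against Soy-20% + SAA the log2 fold change was 0.11, and 0.23 without libraries 3 to 6 (adjusted p = 0.522).

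Lifr varied more between livers of one diet than between diets. Its normalized counts ran from 1062.5 to 2030.1 in Cas-20%, 1080.7 to 1351.1 in Cas-5%, 924.5 to 1741.2 in Soy-20% and 941.3 to 2227.5 in Soy-10% livers. In Soy-20% + SAA livers they ran from 513.6 through 1118.7 to 2235.9, the widest spread of the 5 diets. The low values there, 826.1, 513.6 and 594.5, were those of livers 4, 5 and 6, which are among the libraries with the GC trend. Library 3, which has a weaker trend, was at 1637.0, above liver 1. The longest Lifr transcript has a 3′ end of 27.0% GC. In Soy-10% against Soy-20% + SAA the log2 fold change of Lifr was 0.29 (adjusted p = 0.55) with all libraries and -0.32 (adjusted p = 0.553) without libraries 3 to 6. Between casein diets it was -0.27 and did not pass (interval from -0.51 to -0.02, adjusted p = 0.105), but it depended on single livers, with -0.35 and a call without Cas-20% replicate 5 (adjusted p = 0.0204) and -0.16 without Cas-20% replicate 2 (adjusted p = 0.227).

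**Figure D2:**
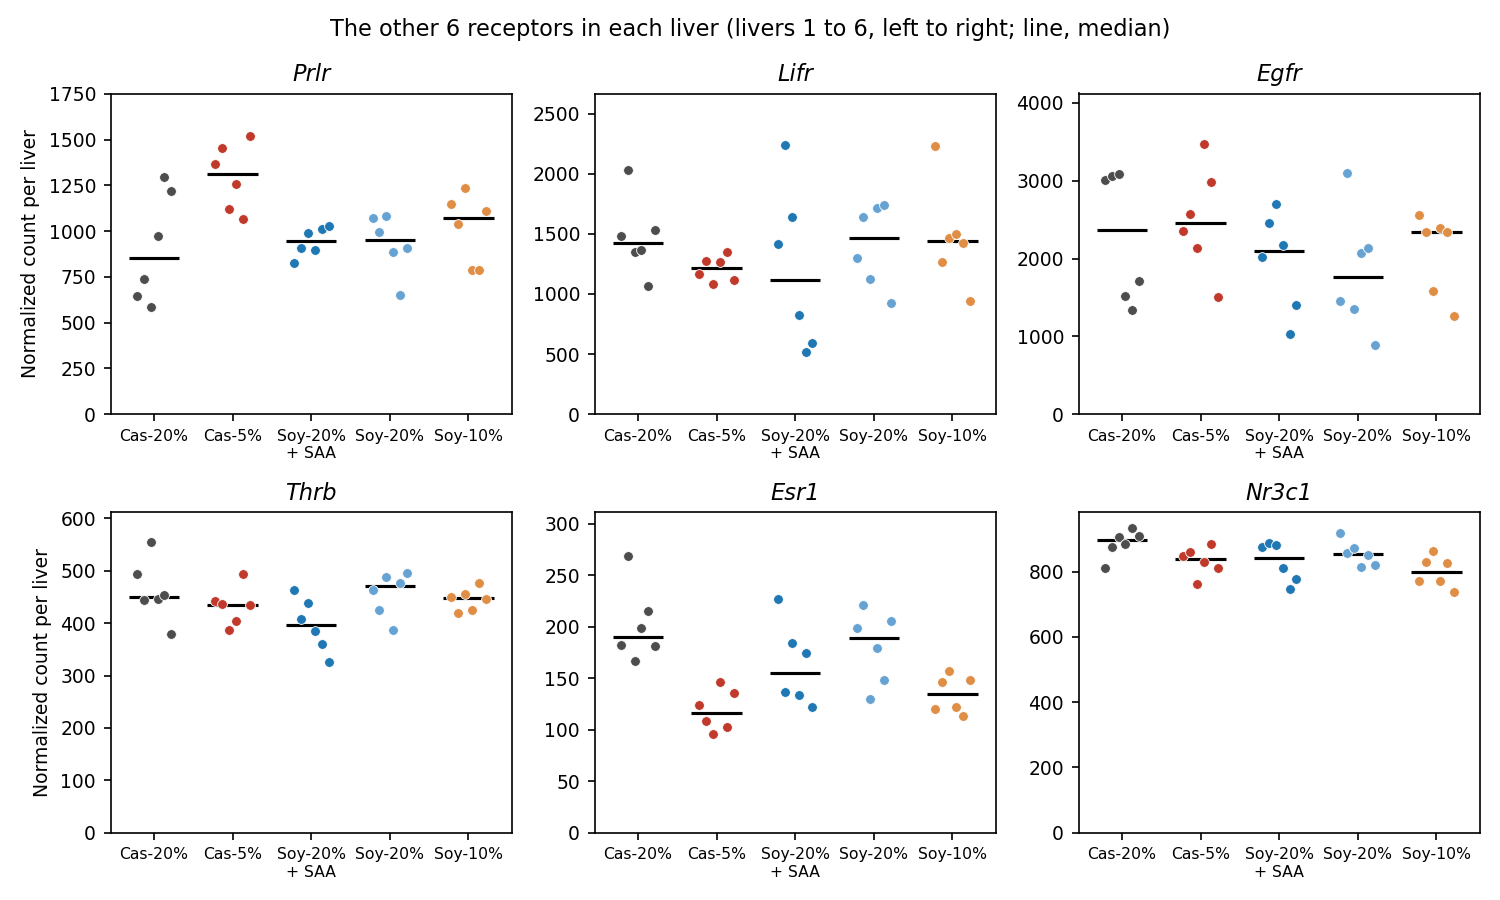
Normalized count per liver (vertical axes from 0) of Prlr, Lifr, Egfr, Thrb, Esr1 and Nr3c1 by diet, points for livers 1 to 6 from left to right and a line at the median. Esr1 in Cas-5% livers lies below all Cas-20% livers, Egfr in Cas-20% livers falls into 3 high and 3 low values, and Nr3c1 is tight in every diet.

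Egfr also varied widely between livers of one diet. In Cas-20% livers it was 3009.8, 3065.5 and 3083.0 in livers 1 to 3 and 1516.5, 1335.3 and 1717.6 in livers 4 to 6. The same livers were split in Prlr, which was low in livers 1 to 3, and in the sum of Cfd and Cidec, listed as adipocyte markers. That sum was 47.1, 65.8 and 37.8 in livers 1 to 3 and 260.6, 247.9 and 157.2 in livers 4 to 6. The part of these genes in the Egfr and Prlr values was not tested. In Cas-5% livers Egfr ran from 1511.3 through 2463.2 to 3474.0, and its lowest to highest range was 885.5 to 3095.5 in Soy-20%, 1032.9 to 2701.0 in Soy-20% + SAA and 1266.2 to 2558.5 in Soy-10% livers. The coefficient of variation within a diet was 25.2% to 42.4%. With this spread the log2 fold change between casein diets was 0.14, with an interval from -0.33 to 0.62, and those of Soy-10% against Soy-20% + SAA and Soy-20% were 0.08 and 0.18 (adjusted p = 0.683, 0.831 and 0.837). Without libraries 3 to 6 the first of the soy values was -0.12 (adjusted p = 0.842).

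Of the nuclear receptors, Esr1 fell in Cas-5% livers and Thrb and Nr3c1 passed no test. Esr1 ran from 166.7 through 190.5 to 268.5 in Cas-20% livers and from 96.0 through 115.9 to 146.0 in Cas-5% livers. All 6 Cas-5% livers were below all 6 Cas-20% livers, as was so for 7.73% of the genes tested. The log2 fold change was -0.75 (standard error 0.13, adjusted p = 0.000386 in edgeR), and it stayed between -0.82 and -0.66 when each liver was left out in turn, with adjusted p up to 0.00131. Its medians were 155.6 in Soy-20% + SAA, 189.3 in Soy-20% and 134.5 in Soy-10% livers, and 3 of 6 Soy-10% livers were below all Soy-20% livers. Neither soy comparison passed, with -0.28 against Soy-20% + SAA (interval from -0.59 to 0.04, adjusted p = 0.196, and -0.45 with adjusted p = 0.23 without libraries 3 to 6) and -0.42 against Soy-20% (interval from -0.69 to -0.15, unadjusted p = 0.00415, adjusted p = 0.147). Without Soy-20% replicate 3 the latter was -0.50 and was called (adjusted p = 0.0414). The casein effect on Esr1 minus its soy effect was -0.48, with an interval from -0.90 to -0.07 and an adjusted p of 0.129, so the effects of the protein sources were not shown to differ.

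Thrb had medians between 396.9 and 470.2 in the 5 diets. Its low values, 360.8 and 326.9, were in Soy-20% + SAA livers 5 and 6, and against that diet Soy-20% was 0.21 higher (interval from 0.01 to 0.41, adjusted p = 0.19). This difference was 0.062 without libraries 3 to 6 (adjusted p = 0.938) and 0.039 with the GC slope as a covariate (adjusted p = 0.943), and that of Soy-10% against Soy-20% + SAA was 0.16 with all libraries (adjusted p = 0.177) and 0.024 without these 4 (adjusted p = 0.926). Between casein diets the log2 fold change of Thrb was -0.08 (adjusted p = 0.552). Nr3c1, the glucocorticoid receptor, was the steadiest member: its normalized counts lay between 739.0 and 934.0 in all 30 livers, with a coefficient of variation of 4.35% to 7.24% within a diet. Its log2 fold change was -0.08 between casein diets (interval from -0.20 to 0.05), -0.05 in Soy-10% against Soy-20% + SAA and -0.10 against Soy-20% (adjusted p = 0.379, 0.596 and 0.506). Against Soy-20% + SAA without libraries 3 to 6 it was -0.15 (adjusted p = 0.397).

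**Figure D3:**
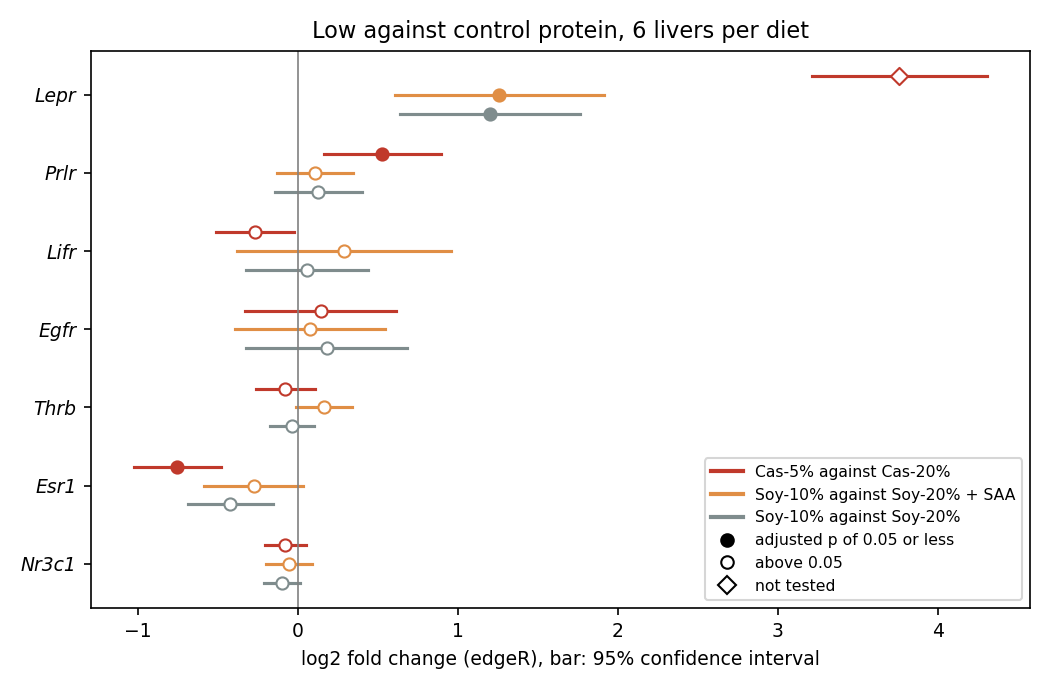
Log2 fold changes of the 7 receptors in 3 low-protein comparisons with 95% confidence intervals, 6 livers per diet; filled points have an adjusted p of 0.05 or less and the diamond was not tested. Lepr is to the right in all 3 comparisons, and Esr1 lies to the left, with a filled point between casein diets (against Soy-20% it was called when Soy-20% replicate 3 was left out).

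All 7 genes passed the filter on low counts in every comparison, Lepr also between Soy-20% and Soy-20% + SAA, where neither diet is high. Between casein diets, 1 of the 6 tested members rose and 1 fell, where 11.6% and 13.3% of 12076 genes did. In Soy-10% against Soy-20% + SAA, Lepr was the 1 member of 7 called, where 8.51% of genes were called higher and 8.47% lower. Against Soy-20% it was also the 1 of 7 called, where 0.319% of genes were called higher and 0.546% lower. Between Soy-20% and Soy-20% + SAA, edgeR called 0 of 7, with Thrb the member at an unadjusted p under 0.05 (0.0423 in edgeR). DESeq2 called 0 of the 6 to which it gave an adjusted p (none for Lepr), while it called 885 of 11932 genes. Of all genes edgeR called 1 (0.00838%), and 2892 had an unadjusted p under 0.05. That share changed with single libraries, to 1587 called genes without Soy-20% + SAA replicate 1 and 1118 without replicate 2. Between Cas-20% and Soy-20% + SAA 0 of 6 were called in edgeR and in DESeq2, with 0 at an unadjusted p under 0.05 in edgeR. Of all genes, 2.43% were called there in edgeR and 1155 of 11988 in DESeq2. Between Cas-5% and Soy-10% Prlr was the 1 of 6 called, against 10.7% of genes. For the casein effect minus the soy effect, 0 of 6 were called in edgeR and in DESeq2, with Esr1 at an unadjusted p of 0.0251 in edgeR. Of all genes, 8.69% were called there in edgeR and 1362 of 12532 in DESeq2. These comparisons share diets and are not independent. In whole liver, fewer cells of a type and less RNA per cell cannot be told apart.

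Among livers of one diet, Egfr and Lifr were high or low together. With each diet's mean removed, Lifr and Egfr correlated over 30 livers with Pearson's r = 0.70 and Spearman's rho = 0.70 (permutation p = 1e-05 and 2e-05 with 100000 permutations within diets, the former the smallest they can give). Adjusted over the 21 pairs of members, with the pairs of Lepr ranked among them, the values were 0.00021 and 0.00042. The correlation was 0.61 without the 2 livers farthest from the Egfr median, 0.70 without libraries 3 to 6 of Soy-20% + SAA and 0.75 with the GC slope and depth of the libraries removed. Within single diets it was 0.53 in Cas-20%, 0.79 in Cas-5%, 0.88 in Soy-20% + SAA, 0.93 in Soy-20% and 0.70 in Soy-10% livers. Prlr and Egfr were opposed, with r = -0.52 and rho = -0.53 (permutation p = 0.0074 and 0.007), but did not pass over the 21 pairs (adjusted p = 0.052 and 0.074). Their opposition was steepest in Cas-20% livers (r = -0.95) and shallow in Soy-20% livers (r = -0.14). Pairs with Lepr hold the casein livers it was chosen on, so no p-value is given for them. Their ranks entered the adjustment over 21 pairs, so adjusted values of other pairs rest in part on those livers. Lepr and Thrb had r = 0.62 and rho = 0.42, with r from 0.69 to 0.84 in Cas-20%, Soy-20% + SAA and Soy-20% livers but -0.19 in Cas-5% and -0.09 in Soy-10% livers, and r was 0.45 without the 2 livers farthest from the Lepr median. The other 5 pairs with Lepr had r from -0.14 to 0.46. The other 13 pairs had adjusted p of 0.1 or more by both measures. No sample label gives a batch, and values from one library share its depth and composition.

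**Figure D4:**
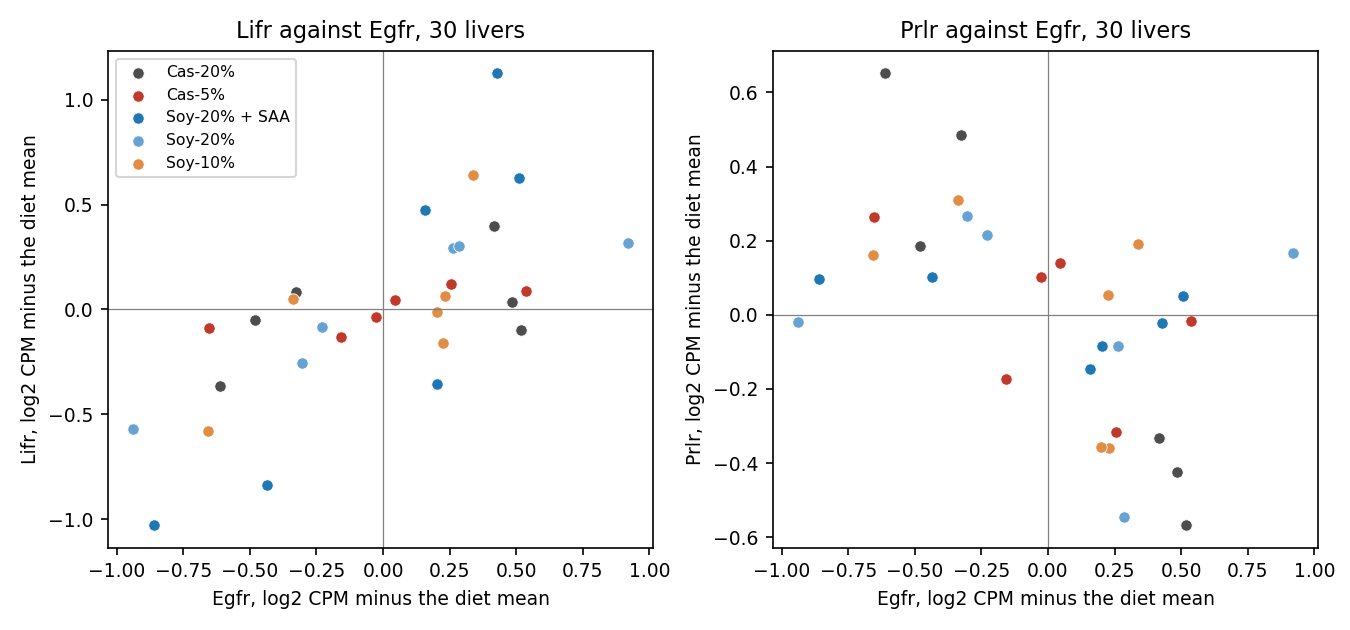
Log2 CPM of Lifr (left) and Prlr (right) against Egfr in 30 livers, each minus the mean of its diet, with colours for diets. Lifr rises with Egfr (r = 0.70) and Prlr falls (r = -0.52).

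The partners and targets of these receptors were read from 9 lists, whose counts stand against 11.6% of all genes called higher and 13.3% lower between casein diets, and 8.51% and 8.47% in Soy-10% against Soy-20% + SAA. Over the distinct genes of all lists, 25 of 163 were higher and 24 lower between casein diets, and 24 of 161 higher and 9 lower in Soy-10% against Soy-20% + SAA. Nothing is read from the count of a single list. In Soy-10% against Soy-20% + SAA, 2035 of 11983 genes were called, but 386 of 11983 with the GC slope as a covariate and 317 of 12483 without libraries 3 to 6. The last fit keeps 2 control livers, so a call lost in it does not show that the difference was lost. The first list concerned leptin signalling. Between casein diets 3 of 15 genes rose and none fell, with a median log2 fold change of 0.10 against 0.02 over all genes. They were Irs2 (0.80, adjusted p = 7.79e-05) and Irs1 (0.40, 0.0399), the adaptors that the insulin and leptin receptors use, and Ptpn11 (0.28, 0.00493), a phosphatase recruited to Lepr. Irs2 had a mean normalized count of 352.5 ± 56.5 (SD, n = 6) in Cas-5% and 204.1 ± 28.6 in Cas-20% livers, with no overlap. Of the JAK-STAT feedback and STAT genes 1 of 19 rose, Stat6 (0.25, adjusted p = 0.0301). In Soy-10% against Soy-20% + SAA, 1 of 15 leptin signalling genes (Ptpn11, 0.22) and 2 of 19 JAK-STAT genes (Pim3, 0.58, and Socs4, 0.41) rose, none of which was called without libraries 3 to 6. Against Soy-20%, 0 of these genes were called.

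Among 19 other cytokine receptors, 3 rose and 3 fell between casein diets. Il6ra, the receptor of interleukin-6, rose by 0.90 (610.1 ± 77.4 against 330.9 ± 76.4 normalized counts, adjusted p = 8.25e-05), and Ghr, the growth hormone receptor, fell by 0.49 (4170.2 ± 470.3 against 5904.3 ± 264.9, adjusted p = 0.000178). Il13ra1, a subunit of the interleukin-13 receptor, fell by 0.62. Of the 25 genes in the list of other hormone and growth factor receptors 2 rose and 5 fell, with Ghr, which is in both lists, counted again among those that fell. Avpr1a, the vasopressin receptor of hepatocytes, rose by 1.40 (490.7 ± 93.4 against 186.6 ± 90.3, adjusted p = 0.000405) and Sstr2, a somatostatin receptor, by 1.51. Soy-10% against Soy-20% + SAA was read in the same way: 3 of 18 cytokine receptors rose and 3 fell, and 4 of 24 other receptors rose, Fgfr2 with the smallest adjusted p (0.55, adjusted p = 0.0123). Without libraries 3 to 6, 0 of the cytokine receptors and 1 of the others were called, where 317 of 12483 genes were.

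LIF acts on liver through Lifr and Il6st and induces acute phase proteins, as does interleukin-6. Of the 13 ligands and acute phase genes tested, 2 rose and 6 fell in Cas-5% livers, with a median of -0.16. Orm1 fell by 3.38 on the log2 scale (599.2 ± 378.8 against 6324.1 ± 717.2 normalized counts, adjusted p = 2.59e-07), with Saa2 (-1.90) and Saa1 (-1.42) also lower. Orm1 and Orm2, and Saa1 and Saa2, are near-identical copies whose reads may be split in counting. Of the same genes, 2 of 13 rose in Soy-10% against Soy-20% + SAA, Lbp (0.39, adjusted p = 0.00213), which binds lipopolysaccharide, and Ctf1 (1.26, adjusted p = 0.0414), a cytokine of the LIF family, and 0 were called without libraries 3 to 6.

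The list of EGF receptor ligands, partners and feedback genes had 3 of 30 members higher and 6 lower between casein diets, with a median of -0.08. Spry4, a feedback inhibitor of receptor kinases, fell by 0.96 (26.5 ± 7.7 against 52.7 ± 8.3, adjusted p = 0.000952). Erbb4, a relative of Egfr, was also lower (13.3 ± 5.7 against 34.3 ± 12.2, adjusted p = 0.00336), as was its ligand Nrg4 (log2 fold change -1.19). For the soy diets, 7 of 30 rose and 4 fell in Soy-10% against Soy-20% + SAA. Egr1, an immediate early gene, was 1.45 higher (adjusted p = 0.0204) and Nrg4 was lower (log2 fold change -1.01, adjusted p = 0.0273). With the GC slope as a covariate 0 of the 30 were called, where 386 of 11983 genes were. Without libraries 3 to 6 also 0 were called, where 317 of 12483 genes were.

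Genes of thyroid hormone handling and action numbered 18, of which 3 rose and 2 fell between casein diets. Thrsp, a lipogenic gene that thyroid hormone induces, fell by 3.11 (607.9 ± 253.6 against 5335.2 ± 3179.2 normalized counts, adjusted p = 7.73e-06). Serpina7, the thyroxine-binding globulin, rose by 0.96 (adjusted p = 0.000274) and Gpd2, the mitochondrial glycerol phosphate dehydrogenase, by 0.46. Against Soy-20% + SAA, Thrsp in Soy-10% livers fell by 2.32 (adjusted p = 0.00301) and Serpina7 rose by 0.72 (adjusted p = 0.0354). Neither was called without libraries 3 to 6, where 317 of 12483 genes were called with 2 control livers left. Of 9 steroid receptor and estrogen genes 2 rose between casein diets, Nrip1 (0.31, adjusted p = 0.00542), a corepressor that binds Esr1, and Foxa1 (0.69, adjusted p = 0.00778), a pioneer factor for nuclear receptors. Foxa1 was the 1 of 9 that rose in Soy-10% against Soy-20% + SAA (0.88, adjusted p = 0.0359), and 0 were called without libraries 3 to 6.

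The glucocorticoid list had 6 of 22 members higher and 3 lower between casein diets, with a median of 0.02, equal to that of all genes. Tat, the tyrosine aminotransferase that glucocorticoids induce, fell by 1.63 (1640.4 ± 558.3 against 5123.3 ± 2071.1 normalized counts, adjusted p = 0.000205). Zfp36, which destabilizes mRNA, and Dusp1, a phosphatase of MAP kinases, were lower, at -0.94 and -1.15 on the log2 scale. The 6 higher genes, named after their values were seen, were Fkbp5 (0.70), Sgk1 (0.74) and Angptl4 (1.29), which glucocorticoids also induce, and the chaperone genes Hsp90aa1 (0.58), Hsp90ab1 (0.31) and Ptges3 (0.19). Among the soy diets 3 rose and 1 fell in Soy-10% against Soy-20% + SAA, with Cebpb 0.92 higher (921.5 ± 199.4 against 486.1 ± 117.5, adjusted p = 0.00263), Hsd11b1, which regenerates active glucocorticoid, 0.37 higher and Zfp36 0.90 higher, and 2 of the 22 were called without libraries 3 to 6. Dusp1 was lower in Soy-10% than in Soy-20% livers (202.4 ± 36.0 against 351.9 ± 84.7, log2 fold change -0.80, adjusted p = 0.0141). It was the 1 gene called there of 163 distinct list genes, where 65 of 11897 genes (0.546%) were called lower and 38 (0.319%) higher.

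**Figure D5:**
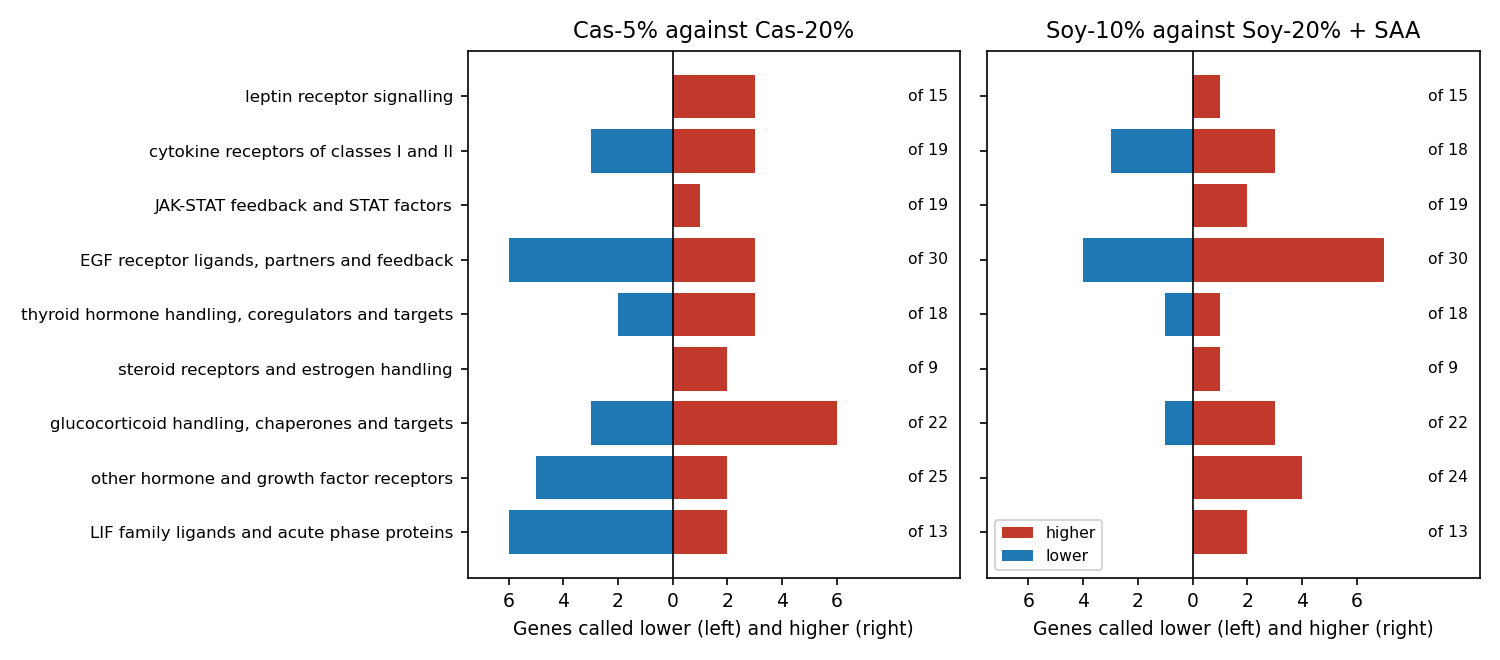
Number of genes of each list called lower (bars to the left) and higher (bars to the right) (adjusted p not above 0.05), with the number tested at the right edge, in 2 comparisons. The EGF receptor list, with 30 genes tested, has 6 lower and 3 higher between casein diets, against 13.3% and 11.6% of all genes. In Soy-10% against Soy-20% + SAA it has 4 lower and 7 higher, against 8.47% and 8.51%. There, 0 of the 30 were called with the GC slope as a covariate or without libraries 3 to 6 of Soy-20% + SAA.

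Of the distinct list genes, 26 of 163 were called between the low-protein diets, where 10.7% of all genes were, and 8 of 161 in Cas-20% against Soy-20% + SAA, where 2.43% were. In Cas-5% against Soy-10%, Irs2 (0.72, adjusted p = 0.00118) and Irs1 (0.60, 0.00243) of the leptin list were higher, Orm1 was lower (-2.70, 1.28e-05), Avpr1a was higher (1.19, 0.000298) and Pgrmc1, a heme-binding membrane protein, was lower (-0.50, 8.12e-05). Ccnd1, a cyclin of G1, was higher (0.82, 0.00118), and Sgk1, a kinase that glucocorticoids induce, was higher (292.0 ± 120.6 against 137.6 ± 19.5 normalized counts, 0.00189). In Cas-20% against Soy-20% + SAA, Zfp36 (1.19, adjusted p = 0.0178), Tat (1.78, 0.0206) and Spry4 (1.39, 0.0261) were higher and Sh2b1, an adaptor of Jak2, was lower (-0.41, 0.0441). With the GC slope as a covariate none of the 9 lists had a called gene in that comparison.

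Genes listed as markers of other cells moved with some comparisons. Between casein diets, the 2 adipocyte genes of the table, Cfd and Cidec, of 6 listed, were both called lower in Cas-5%. Their summed means were 136.1 ± 101.0 (SD, n = 6) in Cas-20%, 43.7 ± 13.9 in Cas-5%, 346.2 ± 112.8 in Soy-20% + SAA, 465.0 ± 289.5 in Soy-20% and 424.6 ± 319.1 in Soy-10% livers. Adipoq, Plin1, Lep and Retn were not in the table, so a change of adipocytes cannot be read from Cfd and Cidec. Stellate and fibroblast markers, 7 of 7 in the table with Dcn the most abundant, summed to 4690.9 ± 519.3 in Cas-5% and 3901.6 ± 222.7 in Cas-20% livers, with 2 called higher. Cela1, listed as an acinar marker, was lower in Cas-5% livers, with 257.3 ± 60.0 against 438.8 ± 137.8. The sums of the 4 acinar markers in the table were 257.4 and 439.2, so Prss2, Cpa1 and Pnlip added almost nothing in these diets. A change of acinar content is therefore not read from Cela1. Summed endothelial markers, 6 of 6 with Kdr the most abundant, were 2955.9 ± 107.9 in Cas-5% and 2781.3 ± 159.4 in Cas-20% livers. Kdr was called higher in Cas-5% livers, with no overlap (log2 fold change 0.20, adjusted p = 0.0265). Kupffer and immune markers, 7 of 7 with Clec4f the most abundant, were 1416.7 ± 222.2 in Cas-5% and 1426.2 ± 239.0 in Cas-20% livers. Cholangiocyte markers, 5 of 6 with Sox9 the most abundant, were 434.5 ± 50.9 and 526.0 ± 74.7 in the same order. In Soy-10% livers the cholangiocyte sum was 314.3 ± 31.9, against 431.9 ± 67.8 in Soy-20% + SAA and 459.2 ± 70.7 in Soy-20% livers. Sox9 was called lower there with no overlap in both comparisons in which Lepr rose (log2 fold changes -0.62 and -0.65, adjusted p = 0.00157 and 0.000597). In Cas-5% against Soy-10%, where Prlr was higher, 4 of 7 stellate and fibroblast markers were called higher (Reln, Pdgfrb, Dcn and Col1a1), both adipocyte genes lower, and the cholangiocyte marker Spp1 higher. The part of these markers in the receptor values was not tested.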

How the data were processed

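The authors made QuantSeq 3′ mRNA libraries (Lexogen) from 30 livers and processed the reads with the Lexogen QuantSeq pipeline 2.3.6. The build in the labels is GRCm38, and the aligner is not given in the sources used here. One deposited table holds raw counts per gene. The other holds a normalized signal that the authors made from those counts with 1 DESeq2 size factor per library (R 4.0.3 and DESeq2 1.30 in the submitters' processing notes). The tables hold 14173 genes, and the lowest total of any gene over the libraries is 90 counts. Of 1718 genes without a symbol, 1684 were named from the GENCODE annotation. Libraries held 7694015 to 14565542 counts. Outside Cas-5% livers Lepr had 4 to 40 counts, so counting error weighs on its values. No pair of livers of one diet agreed within sampling noise.

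Each mouse was a replicate. Counts of the diets compared (4 diets for the casein effect minus the soy effect) were filtered with filterByExpr, scaled by TMM and tested with the two-sided quasi-likelihood test of edgeR 4.0.16 (limma 3.58.1, R 4.3.3), with Benjamini-Hochberg adjustment over all genes tested and a call at 0.05. The test was checked on counts simulated for Soy-10% against Soy-20% only. These held no GC trend, so the check does not cover the libraries of Soy-20% + SAA. Alternatives were DESeq2 1.42.0, size factor scaling, no filter or at least 10 counts in every library, 1 fit of 30 libraries, the replicate number as a block, the 3′ GC slope of each library as a covariate, Soy-20% as the soy control, and livers left out. Confidence intervals cover 95%. Correlations between members were computed on log2 CPM minus diet means and permuted within diets (Python 3.11.15, scipy 1.17.1). Named genes were the 7 members, Leprot, up to 3 genes per list and comparison with the smallest adjusted p among those called (1 gene that this rule names is not reported here), and the 5 genes most like and 3 most unlike Lepr among those with a mean of at least 10 counts. Marker genes are named beside their sums after their values were seen. The members and lists were chosen with earlier results of these data known.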

Additional observations from a re-analysis of the deposited data

Results flagged for a closer look

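In normalized counts, no liver stood apart from the other 5 of its diet in any of the 7 receptors or Leprot: in 40 groups of 6 livers, 0 had a gap between an end value and its neighbour above Dixon's critical share of the range, where chance gives about 1 in 20 groups. On the log2 CPM scale, a check added after seeing the data, 1 of the 40 did: Lepr in Soy-20% liver 4 was low, with a gap of 0.687 of the range. Without that liver the log2 fold change of Lepr in Soy-10% against Soy-20% was 1.03, the lowest with any liver left out.

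In the interaction test of edgeR, the casein effect differed from the soy effect for 22 of 165 list genes, where 8.69% of all genes were called. The 16 named here are among the 3 with the smallest adjusted p in their lists. It was higher for Irs2 (difference 0.69 on the log2 scale), Il6ra (0.72), Gpd2 (0.72), Ncor1 (0.38), Nrip1 (0.48) and Hsp90ab1 (0.44). It was lower for Orm1 (-3.04), Zfp36 (-1.84), Tat (-1.76), Spry4 (-1.52), Igf2r (-1.15), Errfi1 (-1.03), Ghr (-0.61), Fgfr2 (-0.49), Hsd17b2 (-0.40) and Grb2 (-0.31). With the GC slope as a covariate 10 of the 16 were called, without libraries 3 to 6 of Soy-20% + SAA 6 were called (Irs2, Il6ra, Gpd2, Nrip1, Zfp36 and Orm1), and 7 were called when Soy-20% took the place of Soy-20% + SAA. Without libraries 3 to 6 the difference shrank by over 1.5 times for Grb2 (-0.11), Ghr (-0.36), Spry4 (-0.82), Ncor1 (0.22), Hsd17b2 (-0.24), Hsp90ab1 (0.20), Igf2r (-0.46) and Fgfr2 (-0.23). With Soy-20% as control it did so for Irs2 (0.43), Ghr (-0.33), Spry4 (-0.73), Errfi1 (-0.67), Hsd17b2 (-0.24), Zfp36 (-1.07), Tat (-1.07), Hsp90ab1 (0.19), Igf2r (-0.43) and Fgfr2 (0.0014). With the GC slope it did so for Grb2 (-0.17), Ncor1 (0.25), Hsd17b2 (-0.26), Hsp90ab1 (0.25), Igf2r (-0.68) and Fgfr2 (-0.29). With each of 24 livers left out in turn, Grb2 was called in 4 fits, Fgfr2 in 6, Hsd17b2 in 10 and Ncor1 in 20, and the other 12 in all 24.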

How the results depend on the processing

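Where the same call was not kept, the cause was not tested unless stated. With the 3′ GC slope as a covariate, 1 of 6 members (Esr1) was called between casein diets, and 0 of 7 in Soy-10% against Soy-20% + SAA, where 0 were also called without libraries 3 to 6 of Soy-20% + SAA and 0 with at least 10 counts required in every library, a filter that removes Lepr. In that comparison the log2 fold change of Lepr was 0.89 with the GC slope (adjusted p = 0.219 in edgeR) and 0.78 without libraries 3 to 6 (0.315). Lifr turned to -0.36 and -0.32 under these settings, Egfr to -0.22 and -0.12, and Thrb to -0.0057 with the GC slope.

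In Soy-10% against Soy-20%, 0 members were called with the stricter filter, with 1 fit of 30 libraries (Lepr 1.20, adjusted p = 0.107 in edgeR), with the replicate block (Lepr 1.21, 0.0712) and with the GC slope (Lepr 1.21, 0.0655). In Cas-5% against Soy-10%, 0 members were called without a filter, with 1 fit of 30 libraries and with the GC slope, and 2 with the replicate block, which added Egfr (0.28, adjusted p = 0.0345). Replicate numbers did not pair livers: same-numbered livers correlated between -0.19 and 0.194 in their deviations from diet means, with 6 of 36 pairs over 0.1.

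Between Soy-20% and Soy-20% + SAA, values turned with the GC slope and without libraries 3 to 6: Lepr to -0.30 and -0.42, Prlr to 0.082 and 0.10, Lifr to -0.45 and -0.37, Esr1 to -0.052 and -0.022, and Nr3c1 to -0.0505 and -0.045. In Cas-20% against Soy-20% + SAA, Lepr turned to -0.10 and Prlr to 0.065 without libraries 3 to 6, and Lifr to -0.22 with the GC slope and -0.31 without them. For the casein effect minus the soy effect, Lifr turned to 0.044 without libraries 3 to 6, and Nr3c1 to 0.062 there and 0.0665 with the GC slope. When Soy-20% replaced Soy-20% + SAA in it, Nr3c1 turned to 0.0145, Egfr to -0.042 and Fgfr2 to 0.0014.

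Leaving out each liver in turn gave 1 to 3 called members between casein diets (Lifr added without Cas-20% replicate 5), 0 to 2 in Soy-10% against Soy-20% (Esr1 added without Soy-20% replicate 3), 0 to 1 in Cas-5% against Soy-10% and 0 to 1 for the difference of effects. Lepr in Soy-10% against Soy-20% ran from 1.03 to 1.33. Ranges that held both signs were -0.0525 to 0.19 for Egfr in Soy-10% against Soy-20% + SAA, -0.095 to 0.16 for Lifr against Soy-20%, -0.15 to 0.31 for Lepr, -0.058 to 0.071 for Prlr and -0.31 to 0.049 for Egfr in Soy-20% against Soy-20% + SAA, -0.19 to 0.049 for Prlr in Cas-20% against Soy-20% + SAA, -0.0645 to 0.0098 for Thrb in Cas-5% against Soy-10%, and -0.051 to 0.19 for Egfr and -0.054 to 0.0009 for Nr3c1 in the difference of effects.

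Counts of called genes moved by more than 1.5 times in these cases. From 2035 the count of Soy-10% against Soy-20% + SAA became 386 with the GC slope and 317 without libraries 3 to 6. Against Soy-20%, 103 became 228 in DESeq2 and 58 with 1 fit of 30 libraries. Between Soy-20% and Soy-20% + SAA 1 became 885 in DESeq2, 1808 with 1 fit, 0 with the GC slope or without libraries 3 to 6, and 2 with size factors, without a filter or with the stricter filter. In Cas-20% against Soy-20% + SAA 291 became 1155 in DESeq2, 2345 with 1 fit, 141 with the replicate block, 5 with the GC slope and 3 without libraries 3 to 6. The difference of effects went from 1089 to 569 and 296 under the last pair of settings. Leaving out 1 liver gave 1219 to 3119 called genes in Soy-10% against Soy-20% + SAA (most without Soy-20% + SAA replicate 1), 50 to 146 in Soy-10% against Soy-20%, 0 to 1587 between Soy-20% and Soy-20% + SAA, 9 to 1817 in Cas-20% against Soy-20% + SAA, and 719 to 1941 for the difference of effects.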
